A study of Homo sapiens with 12 samples.

Results

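Chemokine receptors and formyl peptide receptors are G protein-coupled receptors that steer white blood cells along gradients of chemokines or of peptides released by bacteria and damaged cells. Most signal through Gi proteins and are then switched off by RGS proteins, receptor kinases and arrestins. On monocytes, CCR2 is known for egress from bone marrow towards CCL2, CCR1 for arrest and entry at inflamed sites, CXCR4 for retention in marrow through CXCL12, CCR7 for movement to lymph nodes, and the formyl peptide receptors for close-range homing.

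The 9 receptors described here were taken by symbol: CCR1, CCR2, CCR7, CXCR4, CXCR2, CX3CR1, CCRL2, FPR1 and FPR2. Each matched 1 of the 78932 gene rows, and all 9 passed the filter on low counts, beside 14065 genes in all. Messenger RNA had been sequenced from THP-1 cells, an established human monocytic leukaemia line, in 12 libraries. The CEL group received LPS and ATP together with luspatercept (a ligand trap built on the activin receptor IIB), eltrombopag (a thrombopoietin receptor agonist that binds iron) and cyclosporin A (a calcineurin inhibitor). The CE group received LPS, ATP, eltrombopag and cyclosporin A, without luspatercept. The LPS group received ATP, a ligand of the P2X7 ion channel, and LPS, an endotoxin of bacteria sensed by TLR4. The NC group was the untreated control. Each group had 3 libraries. LPS with ATP is the study's model of pyroptosis, an inflammatory cell death, and the CEL, CE and LPS groups share it. No library analysed here had luspatercept alone, or any of the drugs without LPS and ATP. The sources used here give neither doses nor times, and nothing says whether the 3 libraries of a group came from separate cultures, so p-values measure the spread between these libraries, which may be technical.

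The libraries held 17737213 to 23183429 counts. The CE libraries were the least alike, with a lowest correlation of log2 CPM between them of 0.961, against at least 0.983 within each other group. Calls of the 9 receptors that change without CE 2 are given both ways. The marker and gene lists below were not recounted without it. There CE 2 can stand apart, as for the monocytic marker ITGAM, with 254, 1246 and 359 counts in CE 1, CE 2 and CE 3. The 10 monocytic markers summed to 498.9 to 567 CPM (counts scaled to library size) in CEL, 552.4 to 825.9 in CE, 812.3 to 894 in LPS and 973.2 to 1000 in NC, and none was at 0 in a whole group. Among them LYZ (lysozyme) was 6.99-fold lower in CEL and 5.12-fold lower in CE than in LPS, and CD14, the LPS co-receptor, was 16.3-fold and 6.83-fold lower. Of the 10, 3 rose, 3 fell and 4 did not pass in CE vs LPS, and likewise in CEL vs LPS. Over all genes tested, 49.6% and 55.9% changed in these comparisons. CSF2RA, a subunit of the GM-CSF receptor, was 2.21-fold higher in CEL and 2.42-fold higher in CE than in LPS, and CD33 and CD68 rose by less in both. The part of these markers in the results was not tested. Fibroblast, epithelial and endothelial markers summed to 2.73 to 4.41 CPM in CEL, 3.86 to 5.71 in CE, 65.8 to 77.8 in LPS and 0.285 to 1.04 in NC. DCN and LUM, which encode matrix proteoglycans, supplied most of that, with 2376 and 2245 counts summed over the LPS libraries, while EPCAM and KRT19 were at 0 there. Lymphocyte markers summed to 3.01 to 3.81 CPM in CEL, 4.77 to 5.25 in CE, 13.6 to 15.1 in LPS and 3.7 to 4.22 in NC, with CD3D, CD3E and CD3G at 0 in every LPS library. TRAC, the T cell receptor alpha constant gene, had 148, 167 and 159 counts in LPS and 2, 2 and 4 in NC, and NKG7, a gene of cytotoxic granules, was 2.28-fold higher in LPS than in NC. Both sums were highest in LPS, as was FPR2 alone among the 9 receptors by mean CPM, and their part in the results was not tested. Granulocyte markers reached at most 4.0 CPM and erythroid and megakaryocyte markers at most 1.6 CPM in any library.

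In untreated cells CCR2 and CXCR4 were the most abundant of the 9 transcripts, and CCR1 led in every group that received LPS and ATP. On the TPM scale (transcript abundance per length and library), CCR1 supplied 52.3 ± 0.985% of the summed TPM of the 9 receptors in CEL, 55.3 ± 0.353% in CE, 44.0 ± 0.339% in LPS and 8.62 ± 0.224% in NC (SD, n = 3 each). CCR2 supplied 1.75 ± 0.199% in CEL, 2.9 ± 0.284% in CE, 25.0 ± 0.0757% in LPS and 39.2 ± 0.648% in NC. CXCR4 supplied 28.3 ± 0.86% in CEL, 21.1 ± 0.445% in CE, 16.4 ± 0.393% in LPS and 35.5 ± 0.769% in NC. The share of CCR1 was lowest in NC, where that of CCR2 was highest, and CCR2, the leading receptor of NC, was among the minor ones in CE and CEL.

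The order of the 9 levels is given on the TPM scale. In CEL it ran CCR1 (69.9 ± 1.68 TPM), CXCR4 (37.8 ± 1.99), CX3CR1 (9.52 ± 0.348), CCRL2 (4.49 ± 0.247), FPR1 (3.43 ± 0.395), CXCR2 (3.08 ± 1.01), CCR2 (2.34 ± 0.316), CCR7 (1.7 ± 0.329) and FPR2 (1.38 ± 0.2). The ranges of FPR1 and CXCR2, of CXCR2 and CCR2 and of CCR7 and FPR2 overlapped. In CE the order was CCR1 (90.4 ± 3.43 TPM), CXCR4 (34.4 ± 0.425), CX3CR1 (10.4 ± 0.788), CCRL2 (7.49 ± 0.576), FPR1 (6.01 ± 0.155), CCR2 (4.73 ± 0.315), CXCR2 (4.14 ± 1.23), FPR2 (3.51 ± 0.388) and CCR7 (2.29 ± 0.474), with overlap between CCR2, CXCR2 and FPR2 as neighbours. In LPS it was CCR1 (86.6 ± 15.4 TPM), CCR2 (49.2 ± 8.64), CXCR4 (32.3 ± 6.3), CX3CR1 (9.84 ± 1.62), FPR2 (5.11 ± 0.917), FPR1 (5.05 ± 1.1), CXCR2 (3.58 ± 0.7), CCRL2 (3.16 ± 0.509) and CCR7 (2.03 ± 0.58), and the neighbours from FPR2 to CCRL2 overlapped. In NC it was CCR2 (83.7 ± 15.4 TPM), CXCR4 (75.8 ± 14.2), CXCR2 (20.4 ± 4.53), CCR1 (18.4 ± 3.41), CX3CR1 (13.3 ± 2.84), CCRL2 (1.13 ± 0.0755), FPR2 (0.587 ± 0.132), FPR1 (0.127 ± 0.125) and CCR7 (0.06 ± 0.052). There CCR2 overlapped CXCR4, the 3 receptors from CXCR2 to CX3CR1 overlapped as neighbours, and so did FPR1 and CCR7.

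**Figure D1:**
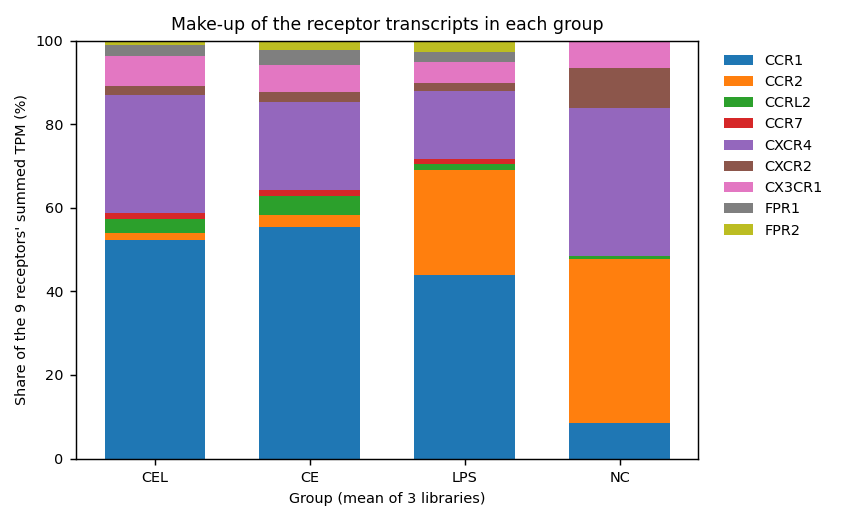
Share of each receptor in the summed TPM of the 9 receptors (vertical axis, percent), as the mean of 3 libraries in each of the CEL, CE, LPS and NC groups (horizontal axis). CCR1 takes 52.3% in CEL, 55.3% in CE, 44.0% in LPS and 8.62% in NC, and CCR2 takes 1.75%, 2.9%, 25.0% and 39.2% in the same groups.

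CCR1, CCR2 and CCRL2 lie in 1 cluster of receptor genes on chromosome 3. On chromosome 19, FPR1 and FPR2 overlap by their GENCODE spans, in which FPR1 reaches 51804110 on the minus strand. The RefSeq start of FPR1 used below lies within 51751829 to 51752128, far from that end. That of FPR2 lies within 51760930 to 51761229 on the plus strand. Transcripts from these RefSeq starts run away from each other and do not overlap. In LPS vs NC, CCR2 fell while CCR1 and CCRL2 rose, and FPR1 and FPR2 both rose. To set these neighbours side by side, the sequences from 250 bases before to 50 bases after the start of each are shown, from RefSeq on GRCh38.p14, each 5′ to 3′ on the gene's own strand. Capitals mark matches, on either strand, to 4 motifs, namely the kappa-B site, the hypoxia response core ACGTG, the NFAT core GGAAAA and the GAS element TTCNNNGAA.
CCR1 (chr3:46208264-46208563, minus strand): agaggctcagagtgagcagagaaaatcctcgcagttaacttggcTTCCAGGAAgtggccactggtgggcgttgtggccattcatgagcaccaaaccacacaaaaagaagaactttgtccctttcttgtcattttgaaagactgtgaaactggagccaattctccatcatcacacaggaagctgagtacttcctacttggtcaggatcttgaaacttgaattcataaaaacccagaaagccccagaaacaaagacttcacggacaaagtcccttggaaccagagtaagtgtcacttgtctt
CCR2 (chr3:46353861-46354160, plus strand): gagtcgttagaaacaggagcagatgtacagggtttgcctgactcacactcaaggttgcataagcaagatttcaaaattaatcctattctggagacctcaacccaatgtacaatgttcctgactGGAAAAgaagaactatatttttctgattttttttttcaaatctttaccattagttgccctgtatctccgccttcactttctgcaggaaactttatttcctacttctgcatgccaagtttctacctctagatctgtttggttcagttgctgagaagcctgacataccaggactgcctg
CCRL2 (chr3:46407009-46407308, plus strand): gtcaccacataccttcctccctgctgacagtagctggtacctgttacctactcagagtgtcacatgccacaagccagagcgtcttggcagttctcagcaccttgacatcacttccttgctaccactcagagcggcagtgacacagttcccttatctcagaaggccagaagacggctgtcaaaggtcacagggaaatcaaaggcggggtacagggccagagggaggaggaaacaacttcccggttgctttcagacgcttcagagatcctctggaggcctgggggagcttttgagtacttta
FPR1 (chr19:51751829-51752128, minus strand): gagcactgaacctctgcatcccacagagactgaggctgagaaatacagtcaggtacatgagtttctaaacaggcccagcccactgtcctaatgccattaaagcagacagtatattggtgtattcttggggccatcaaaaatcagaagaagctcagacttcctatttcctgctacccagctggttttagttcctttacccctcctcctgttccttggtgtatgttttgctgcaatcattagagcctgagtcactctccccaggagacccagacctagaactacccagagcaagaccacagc
FPR2 (chr19:51760930-51761229, plus strand): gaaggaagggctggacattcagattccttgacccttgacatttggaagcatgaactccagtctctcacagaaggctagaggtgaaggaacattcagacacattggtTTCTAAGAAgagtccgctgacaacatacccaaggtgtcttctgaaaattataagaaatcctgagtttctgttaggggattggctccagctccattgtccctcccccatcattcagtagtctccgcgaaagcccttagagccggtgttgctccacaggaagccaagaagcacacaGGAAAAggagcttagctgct

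Of the 9 receptors 8 had an entry of this kind, CCR7 being the exception. A GAS match began at position -206 from the start of CCR1 and at -144 from that of FPR2, and 7.66% of the 35116 promoters of the same length held one. An NFAT core match began at -127 in CCR2 and at 30 in FPR2, and 24% of all promoters held one. The hypoxia core was matched in CX3CR1 alone, at -109, against 21.4% of all promoters. The kappa-B site was matched in 0 of the 8, against 11.3% of all promoters. The promoters of CXCR4 and CXCR2 held no match to any of the 4. These matches describe letters in a short window and are not shown to be sites. The GC content was 45.3% for CCR1, 40.7% for CCR2, 53.7% for CCRL2, 48.3% for both FPR1 and FPR2 and 66.7% for CXCR4, beside a median of 58.7% over all promoters.

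The comparison of LPS with NC addresses what the pyroptosis model does to the cells. All 9 receptors changed, with CCR1, CCR7, CCRL2, FPR1 and FPR2 higher and CCR2, CXCR4, CXCR2 and CX3CR1 lower. CCR7 and FPR1 had few counts in NC and passed the filter through the other groups. For them a rise was close to the only call open in any comparison with NC. Over all 14065 genes tested, 45.9% changed, 22.4% upwards and 23.5% downwards, at an adjusted p under 0.05 in edgeR's quasi-likelihood test. The median size of the log2 change was 2.09 over the 9 receptors and 0.39 over all genes. The 9 were chosen with earlier results of these data known, so these medians only describe them. With upper quartile scaling, 2604 genes were higher and 4387 lower, beside 3152 and 3306 in the main fit, and the 9 receptors kept their directions under all 15 alternatives tried. In bulk samples, fewer cells of a type and less RNA per cell cannot be told apart.

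CCR1, a receptor for CCL3 and CCL5, had 175.1, 182.6 and 162.9 CPM in the LPS libraries and 41.1, 40.0 and 41.3 CPM in the NC libraries. The groups did not overlap, and the 3 NC values were close to each other. The change was 4.26-fold (log2 2.09 ± 0.07, approximate standard error, adjusted p = 7.59e-10 by edgeR), and within the 3 batch numbers it ran from 1.98 to 2.19 on the log2 scale. CCR2, the receptor for CCL2, CCL7 and CCL8, had 130.3, 130.5 and 119.8 CPM in LPS and 243.9, 228.2 and 237.5 CPM in NC. Every LPS library lay below every NC library, and CCR2 fell 1.86-fold (-0.90 ± 0.08, adjusted p = 3.42e-06 by edgeR).

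CCR7, whose ligands are CCL19 and CCL21, was nearly absent from NC, with 3, 3 and 0 counts. In LPS it had 67.7, 67.7 and 96.6 estimated counts, or 3.34, 3.22 and 4.31 CPM, against 0.125, 0.137 and 0 CPM in NC. The fitted change was 5.19 ± 0.46 in log2 units (adjusted p = 3.42e-06 by edgeR), a size that rests on few counts in NC. With limma on log2(TPM + 1) the change of CCR7 was smaller, at 1.499. Dendritic maturation markers, with which CCR7 is classically found, summed to 106.1 to 119.3 CPM in LPS and 7.08 to 9.39 CPM in NC. Of the 7 tested 5 rose and 2 did not pass, and 45.9% of all genes changed. CD80 (3, 0 and 1 counts in NC), IDO1 (2, 1 and 1) and LAMP3 (5, 4 and 0) passed the filter through other groups. For these genes a rise was close to the only call open. CCRL2, an atypical receptor that binds chemerin without classical signalling, had 3.88, 3.08 and 3.37 CPM in LPS and 1.5, 1.19 and 1.48 CPM in NC. It rose 2.47-fold (1.31 ± 0.15, adjusted p = 2.98e-05 by edgeR), with no overlap between the groups.

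CXCR4 and CXCR2, receptors for CXC chemokines, fell. CXCR4 had 38.9, 41.9 and 37.4 CPM in LPS and 107.7, 96.0 and 104.5 CPM in NC, a fall of 2.61-fold (-1.38 ± 0.08, adjusted p = 7.38e-08 by edgeR). CXCR2, a receptor for CXCL8 and CXCL1, had 5.01, 5.96 and 4.97 CPM in LPS and 36.5, 36.5 and 33.5 CPM in NC. Its fall of 6.68-fold (-2.74 ± 0.14, adjusted p = 1.87e-08 by edgeR) was the largest fall among the 9 receptors in this comparison. Of the distinct 31-base words of its longest coding transcript in GENCODE 29, 16.5% also occur in transcripts of other genes, among them CXCR1, a close relative, and the pseudogene CXCR2P1. CXCR1 had 0 counts in LPS and 4 in NC summed over the 3 libraries of each group. CXCR2 shared more of these words with CXCR2P1 (234) than with CXCR1 (207), and the counts of CXCR2P1 are not reported here. The part of shared words in the CXCR2 counts was not tested. CX3CR1, the fractalkine receptor, had 24.1, 23.3 and 23.1 CPM in LPS and 36.6, 34.6 and 34.4 CPM in NC. It fell 1.5-fold (-0.58 ± 0.09, adjusted p = 0.000183 by edgeR), the smallest change of the 9. That call was lost with limma on log2(TPM + 1) and on log2(TPM + 0.1), and the adjusted p over the alternatives ran from 1.63e-05 to 0.17.

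FPR1 and FPR2 both rose. FPR1, the high-affinity receptor for formylated bacterial peptides, had 4.76, 5.49 and 4.0 CPM in LPS and 0.125, 0.228 and 0 CPM in NC, where the counts were 3, 5 and 0. The fitted change was 5.19 ± 0.42 in log2 units (adjusted p = 1.59e-06 by edgeR), and 2.42 on the log2(TPM + 1) scale. FPR2, which also binds annexin A1 and serum amyloid A, had 6.93, 5.77 and 6.39 CPM in LPS and 0.706, 0.959 and 0.97 CPM in NC. It rose 7.24-fold (2.86 ± 0.19, adjusted p = 2.31e-07 by edgeR). On hg38, FPR1 spans 51745172 to 51804110 of chromosome 19 on the minus strand and FPR2 spans 51752026 to 51770526 on the plus strand in GENCODE 29, with 0 exon bases of FPR1 under it. FPR3, on the plus strand, spans 318 exon bases of FPR1 and had 12 counts in CEL, 31 in CE, 124 in LPS and 3 in NC summed over the libraries, beside 185, 340, 303 and 8 for FPR1. The sources used here do not state the strand setting of the counting, so reads of FPR2 and unspliced reads of FPR1, and reads of FPR1 and FPR3 where they overlap, cannot be told apart.

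**Figure D2:**
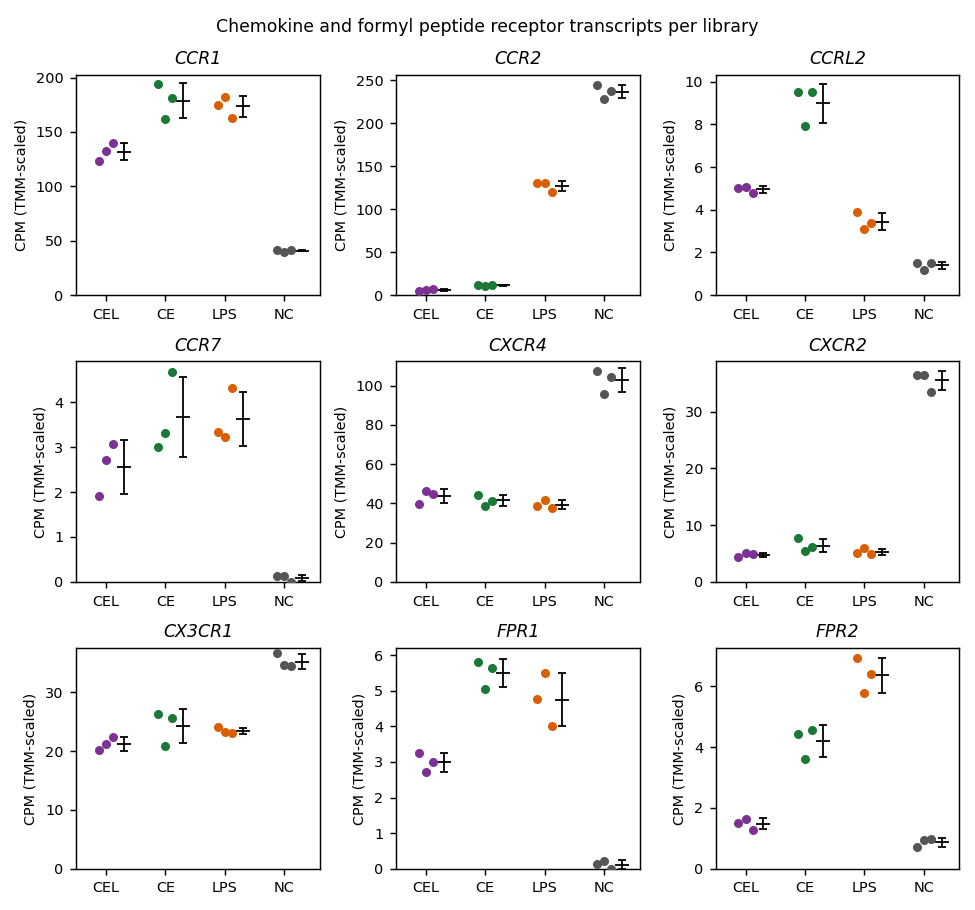
CPM scaled by TMM (vertical axis, from 0) of each of the 9 receptors in the CEL, CE, LPS and NC groups (horizontal axis). Points are the 3 libraries of a group, and the bar beside them is their mean with its SD. CCR2 averages 5.78 CPM in CEL, 11.4 in CE, 126.9 in LPS and 236.6 in NC, whereas CXCR4 differs little between CEL, CE and LPS at 43.6, 41.6 and 39.4 CPM, all below 102.7 in NC.

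CE was compared with LPS to see what cyclosporin A with eltrombopag does within the model. CCRL2 rose, CCR2 and FPR2 fell, and 6 receptors did not pass. Over all genes 49.6% changed in this comparison, 28.8% upwards and 20.7% downwards, and these comparisons share the LPS libraries with LPS vs NC. TMM gave 4057 genes higher and 2915 lower, upper quartile factors gave 2945 and 4000, and library size alone gave 3040 and 3833. On the log2 scale, the median change of the 9 receptors was 0.05, beside 0.08 over all genes. Without CE 2 the number of receptors that changed was 5 rather than 3, and that of all genes 8123 rather than 6972. CXCR2 (0.39 ± 0.12, adjusted p = 0.0189 by edgeR) and CX3CR1 (0.16 ± 0.05, adjusted p = 0.0318 by edgeR) were then higher.

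CCR2 fell 11.1-fold, to 12.0, 10.6 and 11.6 CPM in CE, against 130.3, 130.5 and 119.8 CPM in LPS. The change was -3.48 ± 0.09 in log2 units (adjusted p = 4.2e-10 by edgeR) and lay between -3.62 and -3.37 within the batch numbers. Over the alternatives, leaving out CE 2 among them, it stayed lower and past the threshold. CCRL2 had 9.5, 7.94 and 9.54 CPM in CE and 3.88, 3.08 and 3.37 CPM in LPS. It rose 2.61-fold (1.38 ± 0.14, adjusted p = 9.21e-06 by edgeR), the same direction as in LPS vs NC. FPR2 had 4.43, 3.61 and 4.58 CPM in CE and 6.93, 5.77 and 6.39 CPM in LPS, with no overlap. Its fall of 1.51-fold (-0.60 ± 0.17, adjusted p = 0.0111 by edgeR) was lost with no filter on low counts and with limma on either TPM scale, where the adjusted p reached 0.186.

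The other 6 receptors overlapped between CE and LPS. CCR1 averaged 178.9 ± 16.1 CPM in CE and 173.6 ± 9.94 CPM in LPS (SD, n = 3 each), a difference of 0.04 ± 0.07 in log2 units (adjusted p = 0.642 by edgeR). CXCR4 averaged 41.6 ± 2.78 CPM in CE and 39.4 ± 2.27 CPM in LPS (adjusted p = 0.456 by edgeR). The directions of CCR1, CXCR4, CX3CR1 and CCR7 turned with upper quartile factors or library size alone, settings that shift the all-gene median by -0.17 and -0.15. CXCR2 averaged 6.41 ± 1.23 CPM in CE and 5.32 ± 0.561 CPM in LPS, CX3CR1 24.2 ± 2.96 and 23.5 ± 0.518 CPM, FPR1 5.5 ± 0.396 and 4.75 ± 0.747 CPM, and CCR7 3.67 ± 0.888 and 3.62 ± 0.597 CPM in the same groups.

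CEL was compared with LPS for the effect of the 3 drugs together. CCR2, FPR2 and CCR1 fell, CCRL2 rose, and 5 receptors did not pass. Over all genes 55.9% changed, 28.7% upwards and 27.2% downwards. CCR2 had 4.98, 5.76 and 6.61 CPM in CEL and 130.3, 130.5 and 119.8 CPM in LPS, a fall of 22-fold (-4.46 ± 0.10, adjusted p = 7.28e-11 by edgeR). FPR2 had 1.52, 1.65 and 1.29 CPM in CEL and 6.93, 5.77 and 6.39 CPM in LPS, and fell 4.26-fold (-2.09 ± 0.18, adjusted p = 1.51e-06 by edgeR). Both stood well outside the spread of the libraries.

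CCR1 fell by a small amount, to 123.7, 132.8 and 139.6 CPM in CEL, against 175.1, 182.6 and 162.9 CPM in LPS (-0.39 ± 0.07, adjusted p = 0.000485 by edgeR). CCRL2 had 5.02, 5.06 and 4.78 CPM in CEL and 3.88, 3.08 and 3.37 CPM in LPS (0.52 ± 0.14, adjusted p = 0.00796 by edgeR). The calls of CCR1 and CCRL2 were both lost with limma on either TPM scale, and that of CCRL2 also with no filter on low counts. The receptor count was then 2 with limma, beside 4. Among those that did not pass, FPR1 averaged 2.99 ± 0.271 CPM in CEL and 4.75 ± 0.747 CPM in LPS, with no overlap (-0.67 ± 0.30, adjusted p = 0.0813 by edgeR, which passed under 4 of 15 alternatives). CX3CR1 (-0.15 ± 0.09, adjusted p = 0.175 by edgeR) and CCR7 (-0.51 ± 0.32, adjusted p = 0.206 by edgeR) did not overlap either. CX3CR1 passed with upper quartile factors (adjusted p = 0.0265 by edgeR) and library size alone (adjusted p = 0.0195 by edgeR). These settings shift the all-gene median by -0.135 and -0.112. CCR7 did not pass under any of 15 alternatives. CXCR4 differed by 0.15 ± 0.08 in log2 units (adjusted p = 0.14 by edgeR).

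CEL was compared with CE for what luspatercept adds to the other drugs. No receptor rose, and CCR1, CCR2, CXCR2, CCRL2 and FPR2 fell, while 4 did not pass. Over all genes 23.6% changed, 8.78% upwards and 14.8% downwards, or 1235 genes higher and 2086 lower, against 1581 and 1756 with library size alone. FPR2 changed most, with 1.52, 1.65 and 1.29 CPM in CEL and 4.43, 3.61 and 4.58 CPM in CE, a fall of 2.82-fold (-1.50 ± 0.18, adjusted p = 0.000149 by edgeR). CCR2 had 4.98, 5.76 and 6.61 CPM in CEL and 12.0, 10.6 and 11.6 CPM in CE, a fall of 1.97-fold (-0.98 ± 0.09, adjusted p = 3.03e-05 by edgeR). In neither receptor did the groups overlap.

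CCRL2 had 5.02, 5.06 and 4.78 CPM in CEL and 9.5, 7.94 and 9.54 CPM in CE, a fall of 1.81-fold (-0.86 ± 0.14, adjusted p = 0.0011 by edgeR). CCR1 fell 1.36-fold (-0.44 ± 0.07, adjusted p = 0.000974 by edgeR), with 123.7, 132.8 and 139.6 CPM in CEL and 193.9, 161.8 and 181.1 CPM in CE. With limma on either TPM scale both calls were lost, leaving 2 receptors of 5. CXCR2 passed narrowly, with 4.42, 5.11 and 4.89 CPM in CEL and 7.78, 5.39 and 6.07 CPM in CE (-0.42 ± 0.14, adjusted p = 0.0453 by edgeR). It did not pass under 14 of 15 alternatives, the fit with the batch number as a block included (adjusted p = 0.0826), and the adjusted p over them ran from 0.00866, without CE 2, to 0.628. FPR1 did not pass, at 2.99 ± 0.271 CPM in CEL and 5.5 ± 0.396 CPM in CE (-0.88 ± 0.30, adjusted p = 0.0568 by edgeR). Its values did not overlap, and it passed under 4 of 15 alternatives, without CE 2 among them (adjusted p = 0.0264). CX3CR1 did not pass either (-0.19 ± 0.09, adjusted p = 0.139 by edgeR) but did without CE 2 (-0.30 ± 0.06, adjusted p = 0.00227 by edgeR).

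**Figure D3:**
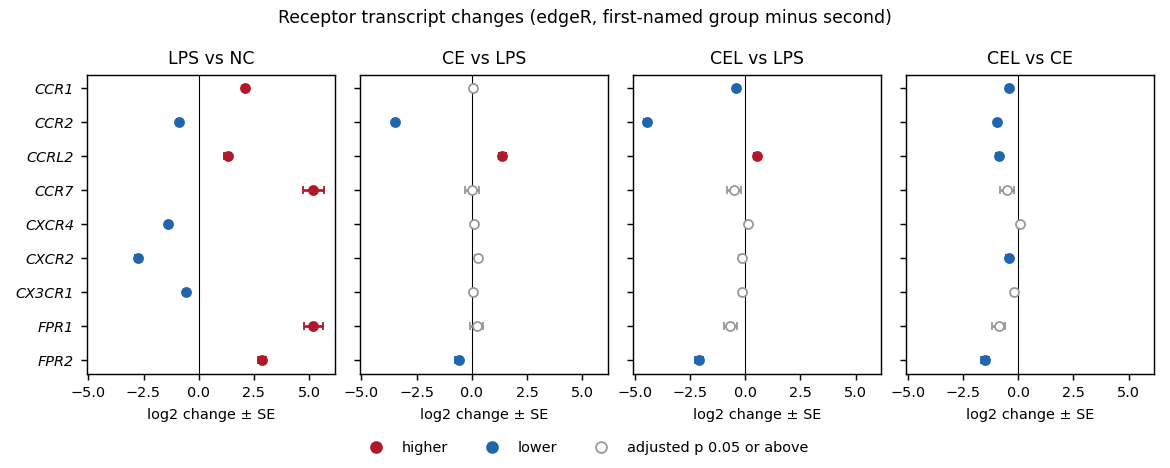
Log2 change of each receptor (horizontal axis, with the approximate standard error as whiskers) in LPS vs NC, CE vs LPS, CEL vs LPS and CEL vs CE, the group named first minus the other. Filled points passed an adjusted p of 0.05 in edgeR and open points did not. CCR2 lies at -0.90, -3.48, -4.46 and -0.98 in these panels, and CCR7 and FPR1 lie at 5.19 in the LPS vs NC panel.

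Set against NC, the treated groups kept the same 5 receptors higher and the same 4 lower as in LPS. In CE vs NC, where 64% of all genes changed (34.6% upwards, 29.4% downwards), all 9 receptors changed, and likewise in CEL vs NC, where 67% of all genes changed (34% upwards, 33% downwards). These comparisons share the NC libraries with LPS vs NC. Upper quartile factors turned the split over all genes to 3571 higher and 5646 lower in CE vs NC, beside 4869 and 4139, and to 3828 and 5805 in CEL vs NC, beside 4778 and 4647. CCR2 was 20.8-fold lower in CE (-4.38 ± 0.09, adjusted p = 8.35e-12 by edgeR) and 41-fold lower in CEL (-5.36 ± 0.10, adjusted p = 3.16e-12 by edgeR) than in NC, at 5.78 ± 0.816 CPM in CEL, 11.4 ± 0.727 CPM in CE and 236.6 ± 7.87 CPM in NC. CXCR4 was 2.36-fold lower in CEL and 2.47-fold lower in CE, at 43.6 ± 3.5 CPM in CEL, 41.6 ± 2.78 CPM in CE and 102.7 ± 6.07 CPM in NC. CXCR2 was 7.39-fold lower in CEL and 5.53-fold lower in CE, at 4.81 ± 0.356, 6.41 ± 1.23 and 35.5 ± 1.73 CPM in CEL, CE and NC. Of the CEL, CE and LPS groups, CEL had the FPR2 level nearest to that of NC, with 1.49 ± 0.184 CPM in CEL and 0.879 ± 0.15 CPM in NC (0.76 ± 0.19, adjusted p = 0.00416 by edgeR), a call lost with no filter on low counts (adjusted p = 0.0667). CCRL2 reached 4.95 ± 0.151 CPM in CEL and 8.99 ± 0.912 CPM in CE, against 1.39 ± 0.175 CPM in NC. The calls of CX3CR1 in both comparisons were lost with limma on either TPM scale.

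On hg38, CCR1 lies at 46201709 to 46208396 on the minus strand, CCR2 at 46353734 to 46360928 and CCRL2 at 46407163 to 46412997, both on the plus strand. CCRL2, which starts 53.4 kb from the start of CCR2, rose in LPS vs NC, CE vs LPS and CEL vs LPS, whereas CCR2 fell in all 3. In CEL vs CE both fell, CCRL2 by 0.86 and CCR2 by 0.98 on the log2 scale. CCR1 lies wholly within the span of CCR3 on the other strand, and CCR3 had 7 counts in CEL, 7 in CE, 15 in LPS and 10 in NC summed over the libraries.

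**Figure D4:**
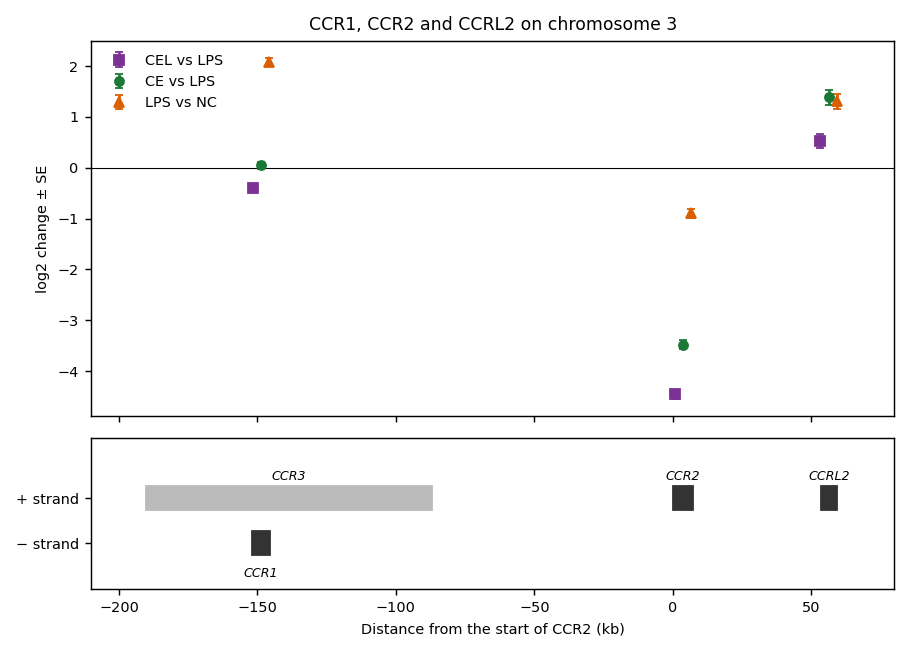
Log2 change with its approximate standard error (upper vertical axis) of CCR1, CCR2 and CCRL2 in CEL vs LPS, CE vs LPS and LPS vs NC, against distance from the start of CCR2 in kb (horizontal axis, comparisons offset slightly). The lower part maps these genes by strand, with CCR3, which was not tested, in grey. In CE vs LPS, CCR1 lies at 0.04, CCR2 at -3.48 and CCRL2 at 1.38.

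CX3CR1 lies apart on the same chromosome at 39263494 to 39281735 on the minus strand. CXCR4 lies on chromosome 2 at 136114349 to 136118165 on the minus strand, CXCR2 on chromosome 2 at 218125289 to 218137253 on the plus strand and CCR7 on chromosome 17 at 40553769 to 40565472 on the minus strand.

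Of 25 other chemoattractant receptors listed, 16 did not pass the filter on low counts. Of the 9 tested, 7 rose, 1 fell and 1 did not pass in LPS vs NC, where 45.9% of all genes changed. FPR3 (0, 1 and 2 counts in NC), CMKLR1 (5, 2 and 7) and ACKR3 passed the filter through groups where they were higher. For them a rise was close to the only call open, so the count does not show a general rise. C3AR1 and C5AR1, the receptors for complement fragments C3a and C5a, reached 76.2 ± 3.29 and 18.2 ± 1.58 CPM in LPS, against 1.05 ± 0.0369 and 0.582 ± 0.17 CPM in NC. PTAFR, the receptor for platelet-activating factor, reached 87.7 ± 2.8 CPM in LPS, against 1.78 ± 0.555 CPM in NC. ACKR3, an atypical receptor that shares CXCL12 with CXCR4, had 64, 60 and 53 counts in LPS and 1, 1 and 0 in NC, so that the receptors of CXCL12 went opposite ways. In CE vs LPS 2 rose, 6 fell and 1 did not pass, beside 28.8% of all genes higher and 20.7% lower. FPR3 and CMKLR1 passed the filter through LPS, so a fall was the call most open to them here. C3AR1 averaged 27.8 ± 2.34 CPM in CE and 76.2 ± 3.29 CPM in LPS. CMKLR1, the signalling receptor for chemerin, which CCRL2 also binds, fell to 5, 12 and 10 counts in CE, against 118, 124 and 135 in LPS, in contrast to CCRL2. In CEL vs CE 1 rose, 2 fell and 6 did not pass, where 23.6% of all genes changed. C5AR1 was higher (0.73 ± 0.13, adjusted p = 0.00175 by edgeR) and PTAFR lower (-0.89 ± 0.13, adjusted p = 0.000454 by edgeR).

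Of 27 ligands of the 9 receptors, 18 were tested. In LPS vs NC 16 rose and 2 fell, beside 22.4% of all genes higher and 23.5% lower. Some, such as CCL8 (0, 1 and 2 counts in NC), passed the filter through groups where they were higher. For those a rise was close to the only call open. CCL2, the main ligand of CCR2, had 900.9 CPM in LPS and 2.07 CPM in NC on average, so ligand and receptor went opposite ways. CCL3, a ligand of CCR1, averaged 106.4 CPM in LPS and 0.227 CPM in NC. CXCL8, a ligand of CXCR2, averaged 2885 CPM in LPS and 6.35 CPM in NC. In CE vs LPS 1 rose, 11 fell and 6 did not pass, beside 28.8% of all genes higher and 20.7% lower. Ligands that passed the filter through LPS alone could hardly rise there. There CCL2 (421.2 CPM in CE, 900.9 CPM in LPS) and CCL8 (5.03 CPM in CE, 85 CPM in LPS) fell together with their receptor CCR2, while MIF, a ligand of CXCR2 and CXCR4, rose 1.66-fold. In CEL vs CE 2 rose, 6 fell and 10 did not pass, beside 8.78% of all genes higher and 14.8% lower. CCL2 fell 2.22-fold and CCL8 3.37-fold, and CXCL1, a ligand of CXCR2, fell 3.08-fold. CXCL12, the ligand of CXCR4, had 35 counts in each of the 3 CEL libraries, against 2, 1 and 1 in the CE libraries. It had 10, 17 and 22 counts in LPS and 6, 11 and 5 in NC.

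Of 23 tested signal transducers 9 rose, 1 fell and 13 did not pass in LPS vs NC, with a median log2 change of 0.41, and 45.9% of all genes tested changed there. LYN, a kinase of the Src family in myeloid cells, rose 5.33-fold. In CE vs LPS 12 rose, 1 fell and 10 did not pass, beside 49.6% of all genes changed (28.8% higher). PIK3CG, the kinase subunit activated by Gi-coupled receptors, was 2.32-fold higher. DOCK2, which activates RAC in migrating leukocytes, was 1.7-fold higher. In CEL vs CE 0 rose, 5 fell and 18 did not pass, a share near the 23.6% of all genes that changed there. Of 14 tested genes for receptor switch-off, 7 rose, 2 fell and 5 did not pass in LPS vs NC. RGS1, which shortens Gi signals, averaged 81.4 CPM in LPS and 0.189 CPM in NC. With 4, 5 and 3 counts in NC, it passed the filter through the other groups. Against NC a rise was therefore close to the only call open to it. It averaged 81.6 CPM in CEL and 146.1 CPM in CE, and was lower in CEL than in CE (-0.84 ± 0.07, adjusted p = 1.82e-05 by edgeR).

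Genes with the most similar pattern were sought by Pearson's r of log2 CPM over the 12 libraries, among the 7340 named genes whose mean log2 CPM was 3 or more. The libraries form 4 groups, so r mostly reflects differences between groups, and it is given as a description. CCR1 was most like AP1S2 (r = 0.999), MS4A7 (0.998) and SAMD9 (0.998). CCR2 was most like INTS10 (0.999), EXOSC3 (0.998) and GUF1 (0.997), although INTS10 spanned only 68.7 CPM in CEL, 78.6 in CE, 132.6 in LPS and 149.0 in NC. CXCR4 was most like CAT (0.994), NUCB2 (0.993) and CTSG (0.993), and CXCR2 was most like RPS6 (0.994), CTSG (0.991) and RPL5 (0.989). CX3CR1 was most like LRPPRC, RPL5 and RPL21 (0.987 each). CCR7 was most like ALAS1 (0.986), TRIM34 (0.985) and IFIT1 (0.985), and FPR1 was most like TRIM34, ALAS1 and SLFN5 (0.989, 0.984 and 0.984). Those of CCRL2 were HLA-DRB5, LST1 and MIOS (0.993, 0.991 and 0.989), and those of FPR2 were MRAS, AKR1C2 and NABP1 (0.994, 0.984 and 0.981).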

How the data were processed

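RNA of 12 THP-1 libraries, 3 in each of 4 groups, was analysed. The authors deposited estimated counts per gene, TPM and FPKM; per the submitters' processing notes the build was hg38, and the sources used here name no aligner, counter or strand setting. FPKM values were not used. Of the nonzero deposited counts 29.3% were not whole, and counts were rounded before testing. NC columns carry the group's name. The others were matched by name and exclusion, which no source states in full: those naming pyroptosis to LPS, those naming treatment with a short form of luspatercept to CEL, and those naming treatment alone to CE. The LPS, CE and CEL values rest on that match.

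Counts were fitted in edgeR 4.0.16 (R 4.3.3) with TMM factors, filterByExpr and the quasi-likelihood test over all 12 libraries, two-sided, with Benjamini-Hochberg adjustment over 14065 genes and a threshold of 0.05. Levels are TMM-scaled CPM within a gene and TPM between genes. Standard errors are the log2 change divided by the square root of F. Alternatives were other scalings, no filter, DESeq2 1.42.0, limma 3.58.1 on log2(TPM + 1) and log2(TPM + 0.1), only the 2 groups compared, a replicate block, and each library left out. Batch labels equal the replicate numbers in every group, so the numbers pair the samples by label only. Of 18 pairs of same-numbered libraries, 6 had deviations correlated above 0.1 (median -0.186, range -0.857 to 0.728 over 7460 genes). Changes within the batch numbers rest on these label pairs, which were mostly not alike. All 9 receptors were named, with up to 4 genes per list and comparison, those called with the smallest p, and the 3 genes most like each receptor. Outside that rule, CCR3, CXCR1, CXCR2P1 and the marker genes at 0 were named after their values were seen. Members and lists were chosen with earlier results of these data known. Values of some genes in the lists are not reported here.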

Additional observations from a re-analysis of the deposited data

How the results depend on the processing

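Over 9 receptors, 6 comparisons and 15 alternatives each, 745 values kept direction and side of the threshold, 33 lost it, 13 gained it and 19 changed sign, all 19 in differences that had not passed. In CE vs LPS, upper quartile factors gave -0.13 for CCR1, -0.16 for CCR7, -0.095 for CXCR4 and -0.13 for CX3CR1, and library size alone gave -0.11, -0.14, -0.077 and -0.11. CCR7 was also -0.025 with relative log expression factors, -0.010 with no filter and -0.025 with DESeq2, and CXCR4 in CEL vs CE was -0.0042 with no filter. Leaving out single libraries moved CE vs LPS between -0.051 and 0.12 for CCR1, -0.23 and 0.17 for CCR7, -0.0083 and 0.14 for CXCR4, and -0.046 and 0.16 for CX3CR1.

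With limma on log2(TPM + 1) and log2(TPM + 0.1), 2963 and 2951 genes changed in LPS vs NC (6458 in edgeR), 3586 and 3545 in CE vs LPS (6972), 4984 and 4978 in CEL vs LPS (7867), and 266 and 225 in CEL vs CE (3321); the receptors that changed were then 2 of 9 in CEL vs LPS (4 in edgeR) and 2 of 9 in CEL vs CE (5), CCR2 and FPR2 both times. The cause was not tested. With only the 2 groups compared, CEL vs CE gave 1710 genes, from a fit with fewer samples. Leaving out single libraries gave 2120 to 4066 genes in CEL vs CE, the low end without CEL 2 and 2165 without CEL 1, and 3 to 5 receptors in CE vs LPS. With the replicate block, receptors changed were 9 in LPS vs NC, 3 in CE vs LPS, 4 in CEL vs LPS and 4 in CEL vs CE, where CXCR2 was lost; no other receptor's call changed. Low counts limit CCR7 and FPR1 in NC.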
